A study of Mus musculus with 6 samples.

Results

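Mitochondrial ribosomal protein genes are the protein-coding rows of the deposited count table whose symbol is Mrpl (large subunit) or Mrps (small subunit) followed by a digit. The rule took 78 of 54532 rows, 49 named for the large and 29 for the small subunit, and used no measured value. Subunit here follows the symbol, also for members whose protein sits elsewhere, such as Mrps18a. The libraries were made from RNA of gastrocnemius, the fast-twitch calf muscle, of C57BL/6J mice aged 3 months. The 3 transgenic libraries are labelled Mck cre; Tg Glut1-Hk2-Pfkfb3, and the 3 control libraries are labelled Mck cre. Mck is the muscle creatine kinase promoter, which drives Cre recombinase in striated muscle. Both groups thus carry the Cre driver, and both were given 0.2% doxycycline in drinking water from 4 weeks of age. Glut1 (Slc2a1) carries glucose into the cell, Hk2 phosphorylates it, and Pfkfb3 makes the activator of phosphofructokinase. The question for these genes is whether muscle labelled as overexpressing the 3 glycolytic proteins differs from control in the transcripts of the mitochondrial ribosome, and whether both subunits do the same.

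The mitochondrial ribosome sits in the matrix and translates the few proteins encoded by mitochondrial DNA, all of them core subunits of the respiratory chain and ATP synthase. All of its proteins are encoded in the nucleus, made on cytosolic ribosomes and imported, whereas its ribosomal RNAs are transcribed from mitochondrial DNA. The small subunit holds the messenger RNA and decodes it, and the large subunit joins the amino acids. Some members descend from bacterial ribosomal proteins, and others were added after the bacterial ancestor. Muscle fibres are rich in mitochondria, and human mutations in several of these genes cause cardiomyopathy or combined respiratory chain deficiency.

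The members lay on 17 chromosomes, with 11 on chromosome 11 and 8 on chromosome 17. The start regions of 6 members are shown because the results below turn on them. Mrps18a, Mrps18b and Mrps18c are paralogs of the same bacterial protein, S18, and differ in their values. Mrps21 had the highest length-normalised level, Mrpl41 the largest difference between groups and Mrps14 the lowest p-value. The windows are RefSeq promoters on GRCm38.p6, the build of the deposited coordinates, from 250 bases before to 50 bases after the start, written 5′ to 3′ on the gene's strand. Capitals mark a match to the NRF1 motif GCGCATGCG, the ETS motif CCGGAAG or the YY1 motif AAGATGGCG, searched on both strands.
Mrps18a (chr17:46110754-46111053, plus strand): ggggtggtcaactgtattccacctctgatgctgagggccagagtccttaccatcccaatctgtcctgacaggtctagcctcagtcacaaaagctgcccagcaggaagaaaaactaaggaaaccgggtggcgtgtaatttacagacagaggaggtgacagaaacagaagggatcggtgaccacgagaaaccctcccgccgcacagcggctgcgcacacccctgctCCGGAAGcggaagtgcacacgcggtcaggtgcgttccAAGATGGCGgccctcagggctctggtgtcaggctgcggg
Mrps18b (chr17:35916391-35916690, minus strand): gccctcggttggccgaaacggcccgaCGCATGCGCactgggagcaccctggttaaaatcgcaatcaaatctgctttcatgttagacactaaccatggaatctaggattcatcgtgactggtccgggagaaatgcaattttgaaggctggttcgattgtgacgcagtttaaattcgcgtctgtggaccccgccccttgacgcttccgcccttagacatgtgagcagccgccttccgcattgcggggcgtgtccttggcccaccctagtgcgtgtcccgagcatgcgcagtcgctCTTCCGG
Mrps18c (chr5:100798509-100798808, plus strand): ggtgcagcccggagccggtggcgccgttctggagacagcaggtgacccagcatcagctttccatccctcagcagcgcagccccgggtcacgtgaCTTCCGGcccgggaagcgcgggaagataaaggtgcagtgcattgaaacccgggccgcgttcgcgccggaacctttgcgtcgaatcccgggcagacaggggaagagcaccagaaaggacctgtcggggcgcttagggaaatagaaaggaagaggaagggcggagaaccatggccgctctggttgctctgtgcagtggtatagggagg
Mrps21 (chr3:95871465-95871764, minus strand): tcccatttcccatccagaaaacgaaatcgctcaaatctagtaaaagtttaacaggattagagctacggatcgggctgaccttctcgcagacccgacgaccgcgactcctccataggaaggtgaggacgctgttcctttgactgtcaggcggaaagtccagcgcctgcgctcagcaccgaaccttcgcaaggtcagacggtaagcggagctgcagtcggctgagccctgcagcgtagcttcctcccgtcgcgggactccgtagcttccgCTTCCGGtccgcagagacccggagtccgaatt
Mrpl41 (chr2:24975049-24975348, minus strand): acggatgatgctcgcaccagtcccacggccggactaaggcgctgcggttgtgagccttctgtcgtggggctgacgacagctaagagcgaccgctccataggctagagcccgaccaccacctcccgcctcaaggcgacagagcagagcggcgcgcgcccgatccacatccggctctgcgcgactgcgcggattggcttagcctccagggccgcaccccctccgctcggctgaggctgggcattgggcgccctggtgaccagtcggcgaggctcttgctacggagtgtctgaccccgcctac
Mrps14 (chr1:160194965-160195264, plus strand): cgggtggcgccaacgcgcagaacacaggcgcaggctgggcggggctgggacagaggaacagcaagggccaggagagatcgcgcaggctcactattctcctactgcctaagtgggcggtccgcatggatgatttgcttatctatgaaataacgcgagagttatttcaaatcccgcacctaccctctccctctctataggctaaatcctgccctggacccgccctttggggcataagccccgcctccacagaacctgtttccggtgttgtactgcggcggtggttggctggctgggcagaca

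NRF1 and YY1 are known regulators of nuclear genes for mitochondrial proteins, and ETS factors bind many housekeeping promoters. The Mrps18a window held an ETS and a YY1 match, the Mrps18b window an NRF1 and an ETS match, and the windows of Mrps18c and Mrps21 an ETS match each. The windows of Mrpl41 and Mrps14 held none of the 3 letter strings. RefSeq windows were found for 69 members, 75 windows in all. An ETS match stood in 34.7% of them, against 16.0% of the 13810 windows of genes tested here. The NRF1 string stood in 9.33% of member windows, against 3.27%, and the YY1 string in 10.7%, against 2.72%. NRF1 matches were in 6 of 48 large subunit windows and 1 of 27 small subunit windows, and ETS matches in 15 and 11 of them. Base composition was similar, with a median G and C content of 58.7% in member windows and 60.3% in windows of all genes tested. The NRF1 string read on the other strand is nearly itself, so overlapping matches were counted once per window. A match describes the letters and does not show binding, and median log2 fold changes of members with and without each string lay between -0.19 and -0.09.

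Many members share their start region with a neighbour that is read the other way. Of the 78 members, 18 (23.1%) had a protein-coding gene on the opposite strand starting within 500 bases upstream, against 9.01% of the 13112 protein-coding genes tested. Opposite-strand pairs whose spans overlap at their starts are outside this count. The distance between the starts ran from 26 to 207 bases. Partners with mitochondrial roles included Sars2, the mitochondrial seryl-tRNA synthetase, 172 bases from Mrps12, and Twnk, the mitochondrial DNA helicase, 116 bases from Mrpl43. Mrps18b started 45 bases from Ppp1r10 and Mrps18c 29 bases from Helq. In the deposited coordinates 41 members overlap the span of another gene, and Mrpl23, Mrpl48 and Mrps36 have pseudogene rows of their own names, so 43 members in all can share or lose reads. The 5 pseudogene rows were low, with 211 counts over the 6 libraries for the highest, Mrpl23-ps1, and 0 for Mrps36-ps3.

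Library totals ran from 19546456 to 24665024 counts, and members took between 0.277% and 0.337% of them. The 11 muscle fibre markers were abundant, and their summed level ran from 104104 to 129033 CPM (counts scaled to a common TMM library size) in transgenic libraries and from 106917 to 156683 CPM in controls. The genes named in the transgene were not called. Slc2a1 had a log2 fold change of -0.63 ± 0.31 (SE; edgeR adjusted p = 0.290), Hk2 0.44 ± 0.27 (adjusted p = 0.381) and Pfkfb3 -1.52 ± 0.57 (adjusted p = 0.196). Pfkfb3 had 120, 476 and 542 CPM in transgenic libraries, against 579, 1096 and 1585 CPM in controls, lower with no overlap. The transgenic libraries here are thus those labelled so. Control replicate 1 stood apart. Its 9 B cell markers summed to 546 CPM, against 6.94 to 57.5 CPM in transgenic libraries and 8.22 and 14.6 CPM in the other controls. Its 11 T and NK cell markers summed to 167 CPM, against at most 6.79 CPM elsewhere. No gene of either list was at 0 in all libraries. Nothing in the labels states that replicates are different mice, and p-values here reflect only library-to-library spread, which may be technical.

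Of the 78 members, 77 passed the filter on low counts and were tested. Mrpl53, a large subunit gene on chromosome 6 (83109040 to 83109939, plus strand), had 0 counts in all 6 libraries, and 3 counts would have been 0.120 to 0.145 CPM. Its span overlaps Ccdc142os and Gm42688 in the deposited coordinates, and the part of that overlap in the 0 was not tested. Deposited FPKM (fragments scaled to gene length and library size), the unit used for comparing genes, ran over a 66.2-fold range of means, with 10 members under 5 FPKM, 38 from 5 to 20, 23 from 20 to 50 and 6 above 50. FPKM depends on the deposited gene length, and across the 77 genes the Spearman correlation of mean FPKM with that length was -0.77, with length entering both sides.

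**Figure D1:**
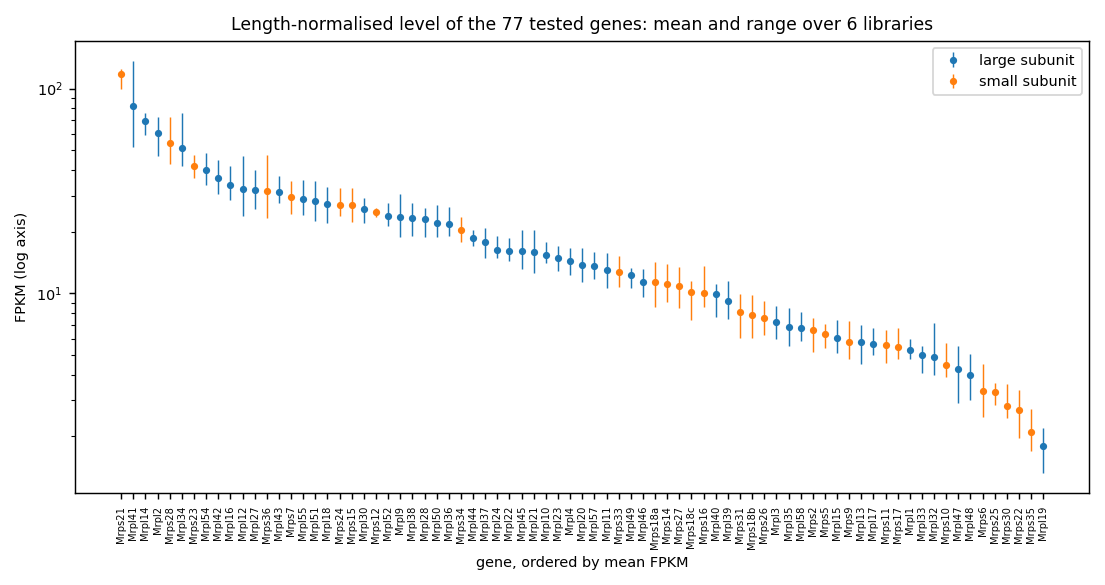
Mean FPKM over the 6 libraries (points, log axis) with the lowest and highest library (lines) for the 77 tested members, coloured by subunit. Mrps21 is at the top with 118 FPKM and Mrpl19 at the bottom with 1.79 FPKM, and the wide line of Mrpl41 runs from 51.7 to 136 FPKM.

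The top of the order was Mrps21, a small subunit protein with a bacterial counterpart, at 121 ± 5.27 FPKM in transgenic libraries and 116 ± 13.6 FPKM in controls (SD, n = 3 each). Next came Mrpl41, a large subunit protein with no bacterial counterpart, at 64.8 ± 2.83 FPKM in transgenic libraries and 98.8 ± 43.0 FPKM in controls. Mrpl14, which lies at the face where the subunits meet, had 72.8 ± 3.44 FPKM in transgenic libraries and 66.0 ± 5.57 FPKM in controls. Mrpl2, part of the peptidyl transferase region, Mrps28 and Mrpl34 also averaged above 50 FPKM. Mrps21 had the highest FPKM of the members in every library except control replicate 2, where Mrpl41 was higher. Mrpl41, Mrpl14 and Mrpl2, with means over the 6 libraries of 81.8 ± 33.0, 69.4 ± 5.58 and 60.7 ± 10.3 FPKM, differed by less than the spread of Mrpl41. At the bottom, Mrpl19, with 1.59 ± 0.31 FPKM in transgenic libraries and 1.98 ± 0.26 FPKM in controls, and Mrps35, with 2.06 ± 0.59 FPKM in transgenic libraries and 2.14 ± 0.39 FPKM in controls, did not differ beyond their spread. Median levels were 16.1 FPKM for the large and 9.99 FPKM for the small subunit.

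No member passed the test between the groups. EdgeR's quasi-likelihood test called 0 of 77 higher, where 0.788% of the 14973 genes tested were called higher, and 0 of 77 lower, where 0.508% were called lower. Unadjusted p-values were under 0.05 for 5 members (6.49%), against 20.8% of all genes tested. They were under 0.05 for 21 members without control replicate 1, 12 without transgenic replicate 1 and 0 or 1 without any of the others. The shares over all genes in those fits are not given, so these counts do not set the members apart. DESeq2 called 0 members, where 3.97% of all genes were called higher and 3.21% lower, 7.18% in all, with 4 members under 0.05 unadjusted, against 19.2% of all genes. The 5 in the fit of all libraries were Mrps6, Mrps14, Mrps28, Mrps31 and Mrps33, all of the small subunit and all with a negative fold change. The lowest adjusted p among members was 0.142 (Mrps14). Fold changes were small, from -0.61 for Mrpl41 to 0.27 for Mrps16 on the log2 scale, transgenic over control. The 95% interval lay inside a log2 fold change of ±1 for 75 of the 77, or 97.4%, against 63.6% of all genes tested. The exceptions were Mrpl41 and Mrps6, whose intervals reached -1.32 and -1.004. The share inside was 95% for nuclear respiratory chain and ATP synthase genes and 89.7% for cytosolic ribosomal protein genes. Members had a median of 33.5 CPM, against 11.9 CPM over all genes tested, and the part of level in the interval widths was not tested.

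**Figure D2:**
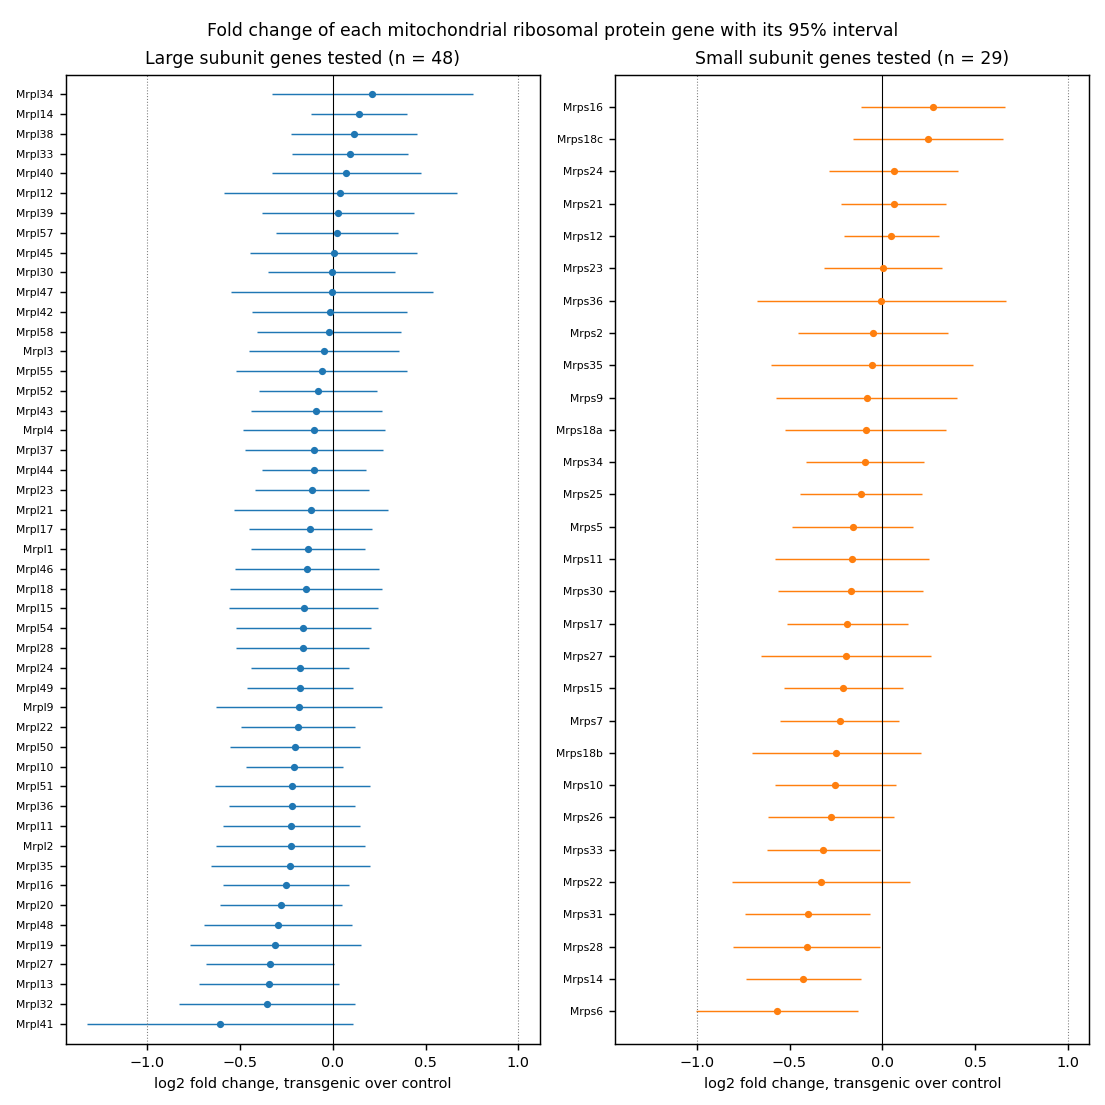
Log2 fold change, transgenic over control, with its 95% interval (edgeR) for the 48 large subunit genes (left) and 29 small subunit genes (right), ordered by fold change, with dotted lines at -1 and 1. Points run from -0.61 to 0.27, none passed an adjusted p of 0.05, and 72 of 77 intervals include 0.

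Most members lay a little below 0 in both subunits under TMM scaling. The median log2 fold change was -0.14 over the 77 members (0.0084 with library totals alone as the scale), against -0.03 over all genes tested, and 62 members (80.5%) were negative, against 53.4% of all genes. Under that other scale the median of all genes was 0.12, and 36 members were negative. Relative to all genes the members' median was -0.11 under either scale. The large subunit had a median of -0.14 and the small subunit -0.16, a difference of 0.03, and with totals alone the large subunit median was 0.02 and the small subunit median -0.0066. Members numbered after bacterial proteins had medians of -0.16 (29 large) and -0.16 (18 small). Mrpl47, Mrps24 and Mrps28 were counted with them as counterparts of bacterial proteins, though their numbers are past the bacterial range. The other members, all numbered past that range, had medians of -0.09 (19 large) and -0.17 (11 small). Cytosolic ribosomal protein genes (87 tested, 0 called by edgeR with 6 unadjusted p-values under 0.05, and 1 by DESeq2) had a median of -0.09. Of these 87, 68 (78.2%) were negative. Nuclear genes of the respiratory chain and ATP synthase (80 tested, 0 called by edgeR with 6 unadjusted p-values under 0.05, and 3 by DESeq2) had -0.07. Of these 80, 53 (66.25%) were negative.

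The transgenic and control libraries overlapped for nearly all members. In 7 of 77 members all 3 transgenic CPM values lay below all 3 control values, which was so for 13.6% of all genes tested, and in 0 members above, which was so for 13.8%. The 7 were Mrpl10, Mrpl22 and Mrpl24 of the large subunit and Mrps6, Mrps14, Mrps31 and Mrps33 of the small subunit. Over the 6 libraries the coefficient of variation of a member's CPM lay between 4.21% (Mrps12) and 40.2% (Mrpl41), with a median of 14.6%.

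The members' levels differed between libraries of the same group, mostly in the same direction. Each member's log2 CPM was set against its own mean over the 6 libraries, and the median over the 77 was taken. It was 0.12, -0.19 and -0.16 in transgenic replicates 1, 2 and 3, and -0.14, 0.21 and 0.13 in control replicates 1, 2 and 3. Under TMM scaling, transgenic replicate 1 thus sat with control replicates 2 and 3, and control replicate 1 with transgenic replicates 2 and 3. As a share of library totals, members took 0.337%, 0.277% and 0.280% in transgenic replicates 1, 2 and 3. The shares were 0.288%, 0.303% and 0.281% in control replicates 1, 2 and 3. By that share control replicate 1 lay between the other controls, so its low place depends on the scale. By subunit the medians were 0.14, -0.19 and -0.16 (large) and 0.08, -0.18 and -0.16 (small) in the transgenic libraries, and -0.16, 0.21 and 0.13 (large) and -0.09, 0.27 and 0.14 (small) in the controls. Control replicate 2 was the highest library for 42 members and transgenic replicate 1 for 23, while the lowest was control replicate 1 for 27, transgenic replicate 2 for 26 and transgenic replicate 3 for 23. The large minus small difference was small in every library, at 0.06, -0.0046 and 0.0043 in transgenic and -0.06, -0.06 and -0.0082 in control libraries.

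**Figure D3:**
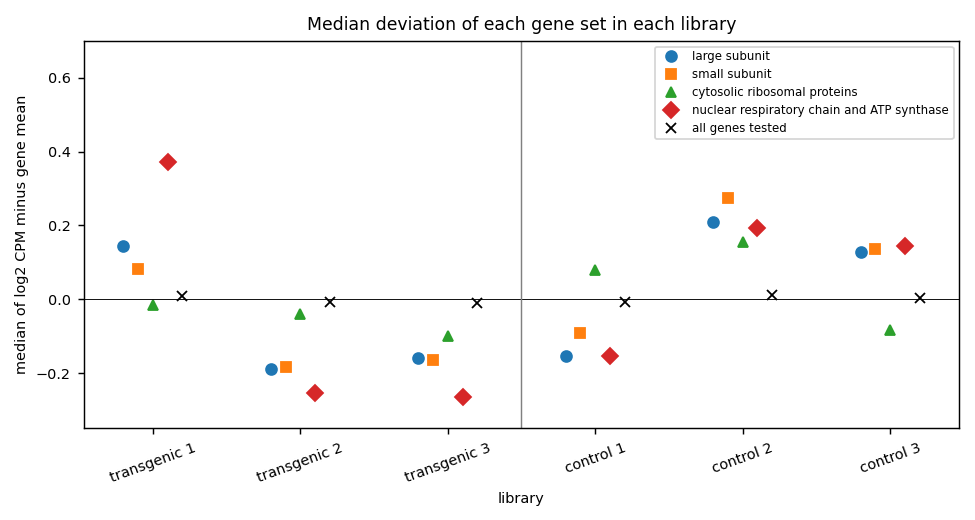
Median over each gene set of log2 CPM (TMM-scaled) minus the gene's mean over the 6 libraries, by library, transgenic left and control right. Both subunits are above 0 in transgenic replicate 1 and control replicates 2 and 3 and below 0 in the other libraries, and the respiratory chain set is highest in transgenic replicate 1.

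Under TMM scaling, nuclear respiratory chain and ATP synthase genes had the same high and low libraries. Their medians were 0.37, -0.25 and -0.26 in transgenic and -0.16, 0.19 and 0.15 in control replicates 1, 2 and 3. Cytosolic ribosomal protein genes did not, with -0.02, -0.04 and -0.10 in transgenic and 0.08, 0.16 and -0.08 in control libraries. Other measures also moved by library. Muscle fibre markers summed to 104104, 129033 and 119594 CPM in transgenic and 106917, 147355 and 156683 CPM in control libraries, so both groups' replicate 1 had the lowest sums. Endothelial markers summed to 518, 265 and 287 CPM in transgenic and 280, 190 and 232 CPM in control libraries. The 6 fibro-adipogenic progenitor markers summed to 1153, 1004 and 1116 CPM in transgenic and 901, 602 and 902 CPM in control libraries, with no overlap. EdgeR called none of them, with 3 unadjusted p-values under 0.05, and DESeq2 called Cxcl14 and Pdgfra higher. The 5 adipocyte markers summed to 1115, 893 and 626 CPM in transgenic and 782, 372 and 432 CPM in control libraries. Most of this was Fabp4, with 1033, 607 and 442 CPM in transgenic and 426, 300 and 318 CPM in control libraries. DESeq2 called Fabp4 higher, while 2 of the 4 adipocyte markers tested had a negative log2 fold change. Macrophage markers summed to 144 to 215 CPM in transgenic and 81.8 to 219 CPM in control libraries, and red blood cell markers to 45.3 to 76.7 CPM in transgenic and 46.7 to 83.7 CPM in control libraries. All 6 macrophage and all 5 endothelial markers had a positive log2 fold change, and 10 of the 11 muscle fibre markers a negative one. The macrophage and endothelial lists each held 2 unadjusted edgeR p-values under 0.05, and edgeR called none of their genes. The part of these cell types in the members' values was not tested. In whole muscle, fewer cells of a type and less RNA per cell cannot be told apart.

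**Figure D4:**
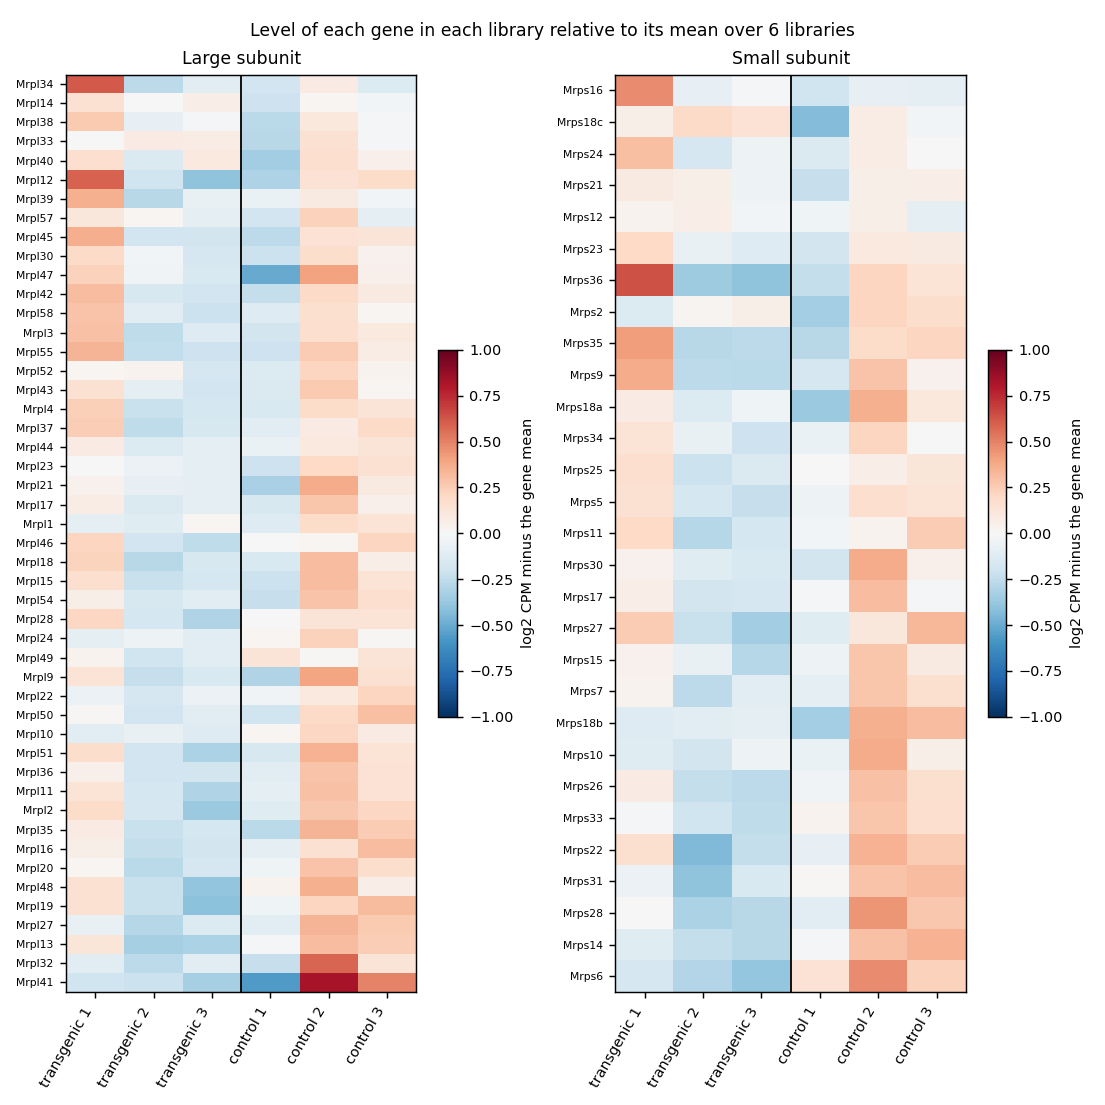
Log2 CPM (TMM-scaled) of each tested member minus its mean over the 6 libraries (colour). Large subunit genes are left and small subunit genes right, ordered by log2 fold change from the highest at the top. Columns are transgenic replicates 1 to 3 and control replicates 1 to 3, with control replicate 2 the highest library in 42 of 77 rows and control replicate 1 the lowest in 27.

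Without control replicate 1, the library with the lymphocyte markers, 5 members were called lower by edgeR. This is 6.49% of the 77, beside 6.99% of all genes tested that were called lower and 13.1% called in either direction in the same fit. They were Mrpl41 (log2 fold change -0.91 ± 0.13, SE; adjusted p = 0.0116), Mrps14 (-0.53 ± 0.11; adjusted p = 0.0262), Mrps28 (-0.55 ± 0.13; adjusted p = 0.0402), Mrpl27 (-0.46 ± 0.11; adjusted p = 0.0417) and Mrps18b (-0.44 ± 0.12; adjusted p = 0.0490). The members' median was then -0.22, with 70 of 77 negative. Without transgenic replicate 1 it was -0.24, with 68 negative and 0 members called. That fit called 0.361% of all genes in either direction. Of all genes, 0.00668% were called without transgenic replicate 2, 0.00668% without transgenic replicate 3, 0.02% without control replicate 2 and 0% without control replicate 3, with 0 members in each, too few calls over all genes to say anything of the members.

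Among large subunit members the largest difference was in Mrpl41 (ENSMUSG00000036850, chromosome 2, 24974117 to 24975098, minus strand), which overlaps no other gene. It had 59.5, 59.0 and 54.3 CPM in transgenic libraries, against 46.3, 121 and 96.3 CPM in control libraries. The transgenic values lay close together and between the low control replicate 1 and the other controls, so the groups overlap. The log2 fold change was -0.61 ± 0.31 (SE, 95% interval -1.32 to 0.11; edgeR adjusted p = 0.305; two-sided exact permutation p = 0.4).

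Mrpl32, whose maturation by the m-AAA protease is a step of ribosome assembly in yeast and mouse, had 22.2, 19.9 and 22.1 CPM in transgenic libraries, against 20.4, 35.7 and 26.1 CPM in controls. Control replicate 1 lay within the transgenic values and the other controls above them, and the log2 fold change was -0.35 ± 0.20 (edgeR adjusted p = 0.360). Mrpl13, a counterpart of a bacterial large subunit protein, had 49.0, 35.8 and 36.3 CPM in transgenic libraries, against 44.5, 55.9 and 53.5 CPM in controls. Transgenic replicate 1 lay above control replicate 1, and the log2 fold change was -0.34 ± 0.16 (edgeR adjusted p = 0.276). Mrpl13 overlaps Mtbp and Mrpl19 overlaps Gcfc2, so their reads may be shared. Mrpl19 had 10.7, 8.24 and 7.21 CPM in transgenic libraries, against 9.30, 11.2 and 11.9 CPM in controls, with overlap again through both replicates 1.

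The groups also overlapped in the large subunit members with the highest fold changes. Mrpl34, a small protein with a bacterial counterpart, had 46.8, 25.4 and 28.4 CPM in transgenic libraries, against 26.8, 32.3 and 27.7 CPM in controls. Only transgenic replicate 1 lay above the controls, and the log2 fold change was 0.21 ± 0.23 with it and -0.09 without it. Mrpl14 had 73.0, 65.8 and 68.7 CPM in transgenic libraries, against 57.0, 66.7 and 64.4 CPM in controls. It was among the steadiest members, with overlap between transgenic replicate 2 and control replicate 2 and an interval from -0.12 to 0.40. Mrpl38, a protein added after the bacterial ancestor, had a log2 fold change of 0.11 ± 0.15 with overlapping groups.

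Large subunit members with further known roles did not pass the test. Mrpl12, the stalk protein that receives translation factors and has been reported to bind mitochondrial RNA polymerase, had 72.3, 41.8 and 36.2 CPM in transgenic libraries, against 38.7, 53.1 and 54.4 CPM in controls. Its highest and its lowest library were both transgenic, and the 95% interval ran from -0.59 to 0.67. Mrpl58, also called ICT1, releases chains from stalled ribosomes, and had 27.4, 20.7 and 19.3 CPM in transgenic libraries, against 20.5, 25.1 and 22.8 CPM in controls. Both the highest and the lowest library were again transgenic, and the 95% interval ran from -0.41 to 0.37. Mrpl3 and Mrpl44, mutated in human cardiomyopathies, had log2 fold changes of -0.05 (interval -0.45 to 0.36) and -0.10 (interval -0.38 to 0.18).

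In the small subunit, Mrps14 (ENSMUSG00000058267, chromosome 1, 160195215 to 160202170, plus strand), with a bacterial counterpart in the head of the subunit, overlaps no other gene. It had 32.9, 30.3 and 29.5 CPM in transgenic libraries, against 35.3, 43.8 and 45.4 CPM in control libraries. Every transgenic library lay below every control library, by the least for replicate 1 of each group. The log2 fold change was -0.43 ± 0.13 (SE, 95% interval -0.73 to -0.12; edgeR adjusted p = 0.142; two-sided exact permutation p = 0.1, the smallest that 3 against 3 allows).

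Mrps6, the counterpart of a bacterial protein that pairs with S18, is low, and had 4.42, 4.07 and 3.80 CPM in transgenic libraries, against 5.505, 6.90 and 5.85 CPM in control libraries. The groups do not overlap, and the log2 fold change was -0.57 ± 0.19 (edgeR adjusted p = 0.160; exact permutation p = 0.1). Its long span overlaps Slc5a3 and 2 further rows of the table, so its counts are uncertain. Mrps31 had 25.3, 19.9 and 23.7 CPM in transgenic libraries, against 26.5, 32.1 and 32.5 CPM in controls. Mrps33 had 20.7, 18.3 and 17.7 CPM in transgenic libraries, against 21.6, 25.5 and 23.7 CPM in controls. Neither of the last 2 genes overlapped between groups, and their adjusted p-values (edgeR) were 0.181 and 0.226. Mrps28, the mitochondrial counterpart of bacterial S1, had 41.8, 33.5 and 34.4 CPM in transgenic libraries, against 38.6, 56.9 and 50.3 CPM in controls. Transgenic replicate 1 lay above control replicate 1, and the log2 fold change was -0.41 ± 0.17 (edgeR adjusted p = 0.231).

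The 3 paralogs of S18 sat at different places. Mrps18c, which holds the bacterial position in the small subunit, had 11.3, 12.4 and 12.02 CPM in transgenic libraries, against 8.05, 11.4 and 10.7 CPM in controls. Mrps18b, a small subunit protein at another site, had 14.7, 14.9 and 15.1 CPM in transgenic libraries, against 12.7, 20.6 and 19.9 CPM in controls. Mrps18a was counted with the small subunit by its symbol, though its protein sits in the large subunit. It had 43.8, 37.5 and 40.1 CPM in transgenic libraries, against 31.9, 52.7 and 44.4 CPM in controls. All 3 were lowest in control replicate 1, and their groups overlap. Log2 fold changes were 0.25 ± 0.17 for Mrps18c, -0.25 ± 0.20 for Mrps18b and -0.09 ± 0.19 for Mrps18a, with edgeR adjusted p-values of 0.449, 0.500 and 0.818. Their 95% intervals overlap, and the difference between paralogs was not tested.

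**Figure D5:**
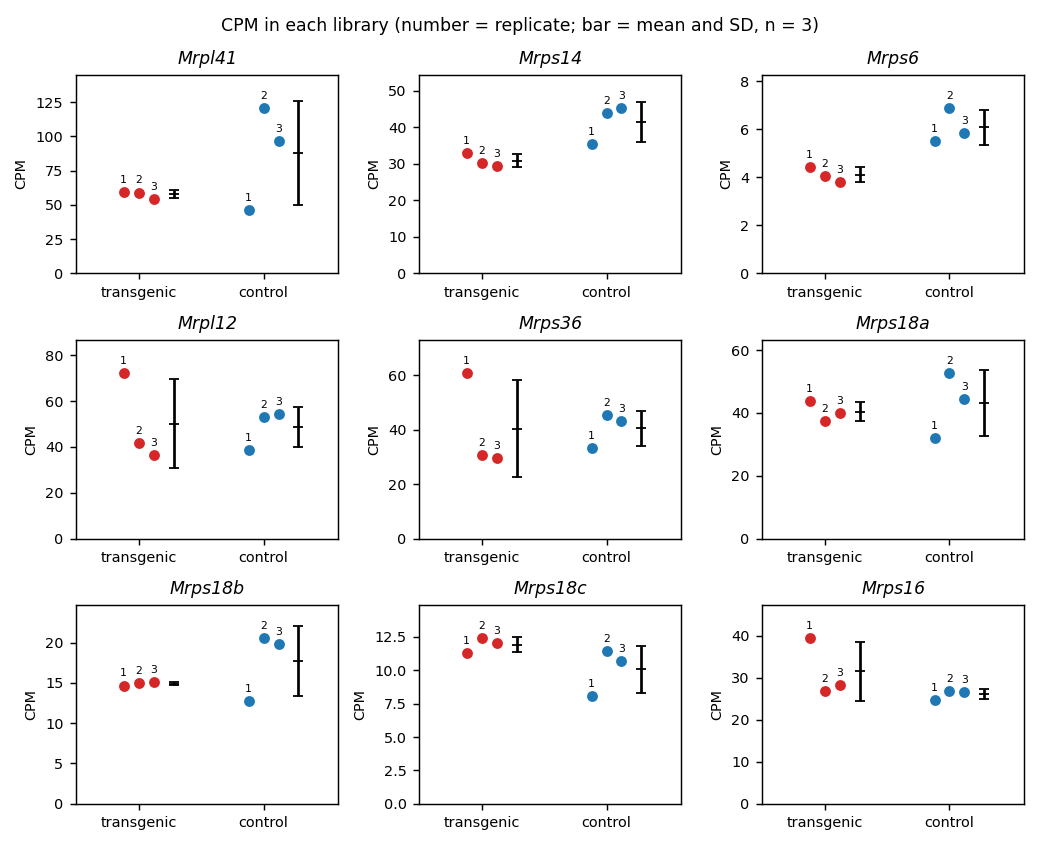
CPM of 9 members in each library (numbered points), with mean and SD bars (n = 3), transgenic left and control right in each panel. Mrps14 and Mrps6 do not overlap between groups, Mrpl41 and the S18 paralogs have their low value in control replicate 1, and Mrpl12 and Mrps36 have their high value in transgenic replicate 1.

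Mrps16, mutated in a human respiratory chain deficiency, had the highest log2 fold change of all members, 0.27 ± 0.17 (edgeR adjusted p = 0.385). It had 39.5, 26.8 and 28.2 CPM in transgenic libraries, against 24.7, 26.9 and 26.6 CPM in controls, with transgenic replicate 1 the highest and transgenic replicate 2 among the controls. Mrps36, whose protein is now known as a part of the oxoglutarate dehydrogenase complex, had 60.9, 30.6 and 29.7 CPM in transgenic libraries, against 33.2, 45.4 and 43.0 CPM in controls. Its transgenic replicate 1 was the highest of the 6 and the other transgenic libraries the lowest, with a log2 fold change of -0.0048 and an interval from -0.68 to 0.67. Mrps35 was also highest in transgenic replicate 1, with 23.8, 14.7 and 14.9 CPM in transgenic libraries, against 14.7, 20.2 and 20.7 CPM in controls, and control replicate 1 lay level with the other transgenic libraries. Mrps22, mutated in human cardiomyopathy, had 11.9, 7.80 and 9.01 CPM in transgenic libraries, against 10.0, 13.5 and 12.6 CPM in controls, and its adjusted p (edgeR) was 0.398. Mrps24, the counterpart of bacterial S3 at the messenger RNA entry, and Mrps21 had log2 fold changes of 0.06 ± 0.15 and 0.06 ± 0.12.

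The RNA of the small subunit, mt-Rnr1, encoded by mitochondrial DNA, was called lower in transgenic libraries. It had 341, 305 and 416 CPM in transgenic libraries, against 701, 1035 and 1043 CPM in control libraries, with no overlap. The log2 fold change was -1.39 ± 0.21 (SE; edgeR adjusted p = 0.0366), and the adjusted p was 0.00618 without control replicate 1 and 0.105 to 0.159 without any of the other 5 libraries. The large subunit RNA, mt-Rnr2, had 670, 467 and 650 CPM in transgenic libraries, against 923, 1341 and 1344 CPM in controls, also with no overlap. It was not called by edgeR (log2 fold change -1.01 ± 0.23, adjusted p = 0.0820). Its adjusted p was 0.0156 without control replicate 1 and 0.000215 by DESeq2. The submitters call the profiles mRNA and list the molecule as total RNA, the step that selected RNA for the libraries is not given in these sources, and counts of ribosomal RNA depend on it.

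Other genes that build or serve the mitochondrial ribosome were not called by edgeR in any of 5 lists, which held 79 tested genes. An unadjusted p under 0.05 was found for 12 of them (15.2%), against 20.8% of all genes tested. DESeq2 called Trub2 and Trmt10c lower, 2.53% of the 79, against 3.21% of all genes. Over the 79 genes 65 were negative, where 53.4% of all genes were, and 42 were negative with library totals alone. Relative to all genes their median was -0.13 under TMM and -0.12 under totals alone. All 5 mitoribosomal proteins with other names were negative (3 with totals alone), with a median log2 fold change of -0.16, among them Dap3, the small subunit protein that binds GTP, at -0.28 ± 0.15 (adjusted p = 0.336), and Ptcd3 at -0.20 ± 0.18 (adjusted p = 0.560). Of 25 assembly and ribosomal RNA modification genes 21 were negative (14 with totals alone), with a median of -0.20. The lowest p-values there were those of Trub2, a pseudouridine synthase, at -0.51 ± 0.14 (adjusted p = 0.108 by edgeR and 0.0408 by DESeq2) and Fastkd2, an RNA granule protein, at -0.48 ± 0.14 (adjusted p = 0.120). Of 14 translation factors 9 were negative (5 with totals alone), with a median of -0.04, and the initiation factor Mtif2 was at -0.20 ± 0.12 (adjusted p = 0.384) and the release factor family member Mtrf1 at -0.35 ± 0.18 (adjusted p = 0.305).

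Of 20 mitochondrial aminoacyl-tRNA synthetases 17 were negative (11 with totals alone), with a median of -0.18. Tars2, for threonine, was at -0.34 ± 0.11 (edgeR adjusted p = 0.156), and Sars2, for serine, which shares its start region with Mrps12, at -0.40 ± 0.15 (adjusted p = 0.195). Mrps12 itself had 26.6, 27.1 and 25.4 CPM in transgenic libraries, against 25.2, 26.9 and 24.4 CPM in controls, the steadiest level of all members. Of 15 genes for mitochondrial transcription and RNA processing 13 were negative (9 with totals alone), with a median of -0.24. Trmt10c, a subunit of mitochondrial RNase P, had 13.6, 13.0 and 14.7 CPM in transgenic libraries, against 18.4, 26.0 and 28.6 CPM in controls, with no overlap. Its log2 fold change was -0.82 ± 0.18 (adjusted p = 0.0817 by edgeR, 0.00589 by DESeq2). Fastkd5, which takes part in messenger RNA processing, had 1.74, 2.08 and 2.36 CPM in transgenic libraries, against 3.71, 3.54 and 3.41 CPM in controls (edgeR adjusted p = 0.117). Without control replicate 1, Trub2, Fastkd2 and Trmt10c were called lower, with edgeR adjusted p-values of 0.0268, 0.0457 and 0.00917. In that fit 6.99% of all genes tested were called lower, and 13.1% were called in either direction. The number called over the lists in that fit is not given, so these calls do not set the lists apart from all genes.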

How the data were processed

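RNA from 3 transgenic and 3 control gastrocnemius samples was sequenced by the authors. Groups and replicate numbers come from the genotype label and the titles. Libraries were made from 3 µg of Trizol RNA with the NEBNext Ultra kit, per the labels' protocols. The submitters' processing notes name HISAT2 2.0.5, featureCounts 1.5.0-p3 and the GRCm38 build. Neither strandedness nor the annotation release is given in these sources, and overlapping, antisense and near-identical genes can share or lose reads. The deposited table held whole-number counts per gene, with gene length, and the FPKM values were deposited beside them, per the file headers.

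Differences between groups in counts were tested with edgeR 4.0.16 (R 4.3.3, TMM scaling, filterByExpr, quasi-likelihood test with legacy = FALSE, Benjamini-Hochberg adjustment over all 14973 genes, threshold 0.05). SEs were derived from the fold change and its F statistic. Other errors are SDs. Log2 CPM used a prior count of 2. Precision from counts and floors of 3 counts covers counting error only. Exact permutation tests were two-sided, over 3 against 3 CPM values.

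The members and lists were chosen with earlier results of these data known. The text names, in each subunit, the 3 highest and 3 lowest log2 fold changes, the 2 highest levels and the lowest level in FPKM, 9 members of known role, members of categories of 5 or fewer, and the 2 lowest p-values of each of the 5 mitochondrial lists. Lists of cell type markers are given by their sums. Mrpl2, Mrpl10, Mrpl22, Mrpl24, Mrpl43, Mrps12, mt-Rnr1, mt-Rnr2, Cxcl14, Pdgfra and Fabp4 were named after their values were seen. Alternatives were DESeq2 1.42.0, other scalings and filters, limma 3.58.1 on log2(FPKM + 1) and log2(FPKM + 0.1), a replicate block, fits without each library, a threshold of 0.01, another subunit assignment for Mrps18a with Mrps36 left out, and members that cannot share reads. The steps were tested on simulated data.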

Additional observations from a re-analysis of the deposited data

How the results depend on the processing

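No member was called under DESeq2, RLE or library-total scaling, no filter on low counts or limma on FPKM. Over all genes, DESeq2 called 1075 of 14973, RLE scaling 211 and library totals 259. Limma called 121 with 0.1 added and 112 with 1 added, and the fit with no filter called 124 of 28128. Apart from DESeq2, these are so few calls over all genes that 0 members says little of the members. A threshold of 0.01, the replicate block and the fits without any library other than control replicate 1 also gave 0 members, but called 0 to 54 genes of 14973 in all and so say nothing of the members. Leaving out each library gave 0 to 5 members called lower, 0 to 2 in the large subunit and 0 to 3 in the small subunit. With library totals alone, the median log2 fold change turned to 0.0084 over all members and 0.021 in the large subunit, while the median of all genes moved to 0.12. That scale also turned Mrps35 (0.11), Mrpl44 (0.050), Mrpl3 (0.11), Mrpl58 (0.13), Mrps18a (0.084) and Mrps36 (0.15), none of them called. Mrpl12 turned to -0.0081 and -0.0068 under limma on log2(FPKM + 0.1) and log2(FPKM + 1), and Mrps36 to 0.011 with no filter. The cause was not tested in any of these.

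Nothing in the labels says that the numbers 1 to 3 pair the samples. Correlations of deviations were -0.02, -0.17 and 0.16 for equal numbers and from -0.17 to 0.18 for unequal numbers. With so few libraries they cannot show whether the samples are paired. With the replicate block, 5 genes in all were called and 0 members, Mrpl12 turned to -0.015, the medians were -0.15 over all members, -0.14 in the large and -0.17 in the small subunit, and mt-Rnr1 was no longer called (adjusted p = 0.0870).

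Leaving out each library moved the median from -0.24 to -0.072 over all members, from -0.22 to -0.045 in the large and from -0.27 to -0.089 in the small subunit, and the large minus small difference from -0.0044 to 0.071. Single members that changed sign there ranged from -0.31 to 0.064 (Mrps35), -0.41 to 0.18 (Mrps36), -0.21 to 0.063 (Mrpl3), -0.17 to 0.079 (Mrpl58), -0.26 to 0.084 (Mrps18a), -0.031 to 0.11 (Mrps21), -0.30 to 0.23 (Mrpl12), -0.089 to 0.38 (Mrpl34) and -0.071 to 0.16 (Mrps24). mt-Rnr1 was not called by limma on log2(FPKM + 0.1) or log2(FPKM + 1) (adjusted p = 0.0579 and 0.0616). With 3 libraries a group, single members had a median SE of 0.16 log2 units, and the largest fold change of a member, -0.61, did not pass the test.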
